A study of Rattus norvegicus with 14 samples.

Results

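The protein phosphatase genes on this array were taken as every probe set whose only gene symbol on the platform begins with Ppp and a digit, Ppm1, Ptp, Dusp or Ssh. There were 111 such probe sets, for 69 genes, among 8740 probe sets other than controls, of which 7006 carried 1 symbol. A further 2 probe sets with several symbols were left out. The choice used names only and no measured value. RNA came from the left lateral lobe of rat liver and was measured on an Affymetrix array in 3 diet groups, namely 4 arrays labelled Mg++ deficient (numbers 11 to 14), 5 labelled MG++ supplemented (1 to 5) and 5 labelled standard diet (6 to 10). No genetic change or drug is named for any group. The labels give neither the magnesium content nor the length of the diets, nor the strain, sex or age of the rats, and no label states that arrays of a diet are different animals. The p-values below therefore cover the variation among these arrays, which may be technical.

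The liver label was checked against hepatocyte markers. Of 10 listed, 8 were on the array and all 8 were tested, with albumin (Alb) at a mean of 8957 units, transthyretin (Ttr) at 6374 units and the liver enzyme Tat at 1500 units. One array stood apart before any diet was compared. Supplemented array 5 had a mean rank correlation of 0.910 with the other arrays, against 0.937 to 0.948 for the remaining arrays. The log2 ratio of the 3' to the 5' Gapdh control signal, a measure of how complete the labelled RNA is, averaged 1.84 ± 0.65 on the deficient arrays (SD, n = 4), 0.71 ± 0.49 on the supplemented arrays (SD, n = 5) and 1.64 ± 0.61 on the standard arrays (SD, n = 5). Its lowest value, -0.12, was that of supplemented array 5. The same ratio of the beta-actin control differed in this: on array 5 it was 1.29, above the 0.77 to 0.97 of the other supplemented arrays. Array 5 was the lowest of the 14 arrays for 22 of the 70 tested phosphatase probe sets (31.4%), against 17.8% of all 5133 tested. It was the highest for 5 (7.14%), against 18.3% of all. For gene and list differences that involve the supplemented diet, the value without array 5 is added where leaving it out changed the sign or moved the value by over 1.5 times. For many of them that comparison was added after the data were seen.

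Protein phosphatases remove phosphate groups that kinases have added. The Ppp family works through a few catalytic subunits with bound metal ions, and regulatory subunits direct them to substrates. The Ppm1 enzymes (also called PP2C) act as single subunits and need magnesium or manganese ions for catalysis. The Ptp enzymes act on phosphotyrosine, with receptor types (Ptpr) in the membrane, and the Dusp enzymes act on both tyrosine and serine or threonine, chiefly on MAP kinases. The Ssh (slingshot) enzymes act on cofilin, a regulator of actin filaments. In liver these enzymes take part in insulin signalling and in the control of glycogen and lipid metabolism.

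The promoters of Ssh3, Ppp1r12a and Ptpn23 are shown because these genes are among those with the largest diet differences described below and had arrays that did not overlap between diets. RefSeq held promoters of 61 of the 69 genes (rat build GRCr8), each running from 250 bases before to 50 bases after the gene's start. They are printed 5' to 3' on the gene's strand, and capitals mark the motifs found on either strand, none of which overlapped another.
Ssh3: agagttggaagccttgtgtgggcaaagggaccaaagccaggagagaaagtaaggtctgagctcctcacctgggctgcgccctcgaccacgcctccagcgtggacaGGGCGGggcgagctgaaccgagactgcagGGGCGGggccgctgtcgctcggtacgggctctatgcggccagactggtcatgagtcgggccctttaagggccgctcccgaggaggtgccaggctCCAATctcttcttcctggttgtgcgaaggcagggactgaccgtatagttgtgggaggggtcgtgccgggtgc
Ppp1r12a: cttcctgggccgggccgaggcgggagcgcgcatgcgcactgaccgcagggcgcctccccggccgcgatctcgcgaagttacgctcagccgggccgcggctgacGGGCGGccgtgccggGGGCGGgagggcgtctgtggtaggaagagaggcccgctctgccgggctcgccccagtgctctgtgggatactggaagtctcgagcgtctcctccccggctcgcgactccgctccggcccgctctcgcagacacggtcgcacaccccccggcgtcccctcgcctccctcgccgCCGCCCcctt
Ptpn23: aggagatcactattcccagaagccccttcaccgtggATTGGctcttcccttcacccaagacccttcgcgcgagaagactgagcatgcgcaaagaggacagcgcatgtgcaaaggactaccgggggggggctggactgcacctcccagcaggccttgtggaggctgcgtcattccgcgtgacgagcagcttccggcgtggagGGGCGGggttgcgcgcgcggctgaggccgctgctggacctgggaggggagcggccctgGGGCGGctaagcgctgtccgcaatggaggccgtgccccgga
The Ssh3 window lies at chr1:210994045-210994344 on the minus strand, that of Ppp1r12a at chr7:45369194-45369493 on the plus strand and that of Ptpn23 at chr8:119261626-119261925 on the minus strand. The share of G and C was 64.3% for Ssh3, 75.7% for Ppp1r12a and 67.0% for Ptpn23. The Ssh3 window held 2 GC boxes (GGGCGG) and 1 CCAAT box (CCAAT), the Ppp1r12a window held 3 GC boxes and the Ptpn23 window held 2 GC boxes and 1 CCAAT box. Over the phosphatase promoters a GC box was present in 43 of 61 (70.5%), against 56.2% of the 3872 array genes with a promoter and 34.9% of all 27457 promoters. The cAMP response element (TGACGTCA) was present in 4 phosphatase promoters (6.56%), against 2.43% of array genes and 1.91% of all. A CCAAT box was found in 21 (34.4%), against 38.2% and 37.7%, a TATA motif (TATAAA) in 4 (6.56%), against 11.4% and 14.3%, and an E-box (CACGTG) in 2 (3.28%), against 8.50% and 6.65%. None of these shares was tested.

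Signals were quantile normalised on the log2 scale and floored at 3.93 units, and a probe set was tested when its mean over the 14 arrays was above 14.3 units. This left 70 phosphatase probe sets for 51 genes. The 18 genes with no tested probe set had mean signals of 3.93 to 14.0 units. They were Ppp1r16b, Ppp1r36, Ppp1r3b, Ppp1r9a, Ppp2r2b, Ppp3cb, Ppp3r2, Ptpn5, Ptpn7, Ptprd, Ptprg, Ptprn2, Ptprq, Ptprr, Ptpru, Ptprv, Ptprz1 and Dusp4. Among them is Ppp1r3b, the liver subunit that brings PP1 to glycogen, at 6.02 units. Without detection calls, whether such dim signals lay above background is unknown.

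No phosphatase gene passed the test in any diet comparison. At an adjusted p under 0.05 (limma, Benjamini-Hochberg over all 5133 probe sets) 0 of 70 were called for deficient against standard, where 0.00% of all probe sets were called, 0 for supplemented against standard (0.00% of all) and 0 for deficient against supplemented (0.0195% of all). The limma F-test for any diet difference called 0, with 8 of 70 (11.4%) at an unadjusted p under 0.05 against 9.00% of all, and a lowest adjusted p of 0.417. At an unadjusted p under 0.05, limma counted 3 phosphatase probe sets (4.29%) for deficient against standard, 1 higher and 2 lower, beside 3.04% of all, 1.32% higher and 1.71% lower. For supplemented against standard it counted 7 (10.0%), 2 higher and 5 lower, beside 8.88% of all, 4.15% higher and 4.73% lower. For deficient against supplemented it counted 9 (12.9%), 5 higher and 4 lower, beside 13.0% of all, 6.86% higher and 6.18% lower. With all arrays, the last 2 shares lie close to those of all probe sets. With the Gapdh ratio as a covariate the counts were 5 (7.14%, beside 2.75% of all), 4 (5.71%, beside 2.57%) and 5 (7.14%, beside 2.20%). The share of all probe sets thus dropped most in the comparisons with the supplemented diet. That ratio ran from -0.12 to 1.12 on the supplemented arrays, from 1.12 to 2.68 on the deficient and from 1.04 to 2.65 on the standard arrays. Because the supplemented ratios hardly overlap those of the other diets, this covariate cannot separate the ratio from the supplemented diet, here or below. With the beta-actin ratio they were 4 (5.71%, beside 3.25% of all), 4 (5.71%, beside 4.77%) and 6 (8.57%, beside 4.75%). Leaving out supplemented array 5, with normalisation and filter run again, gave 4, 6 and 9 phosphatase probe sets in the 3 comparisons, beside 4.32%, 9.05% and 12.5% of all.

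Phosphatase probe sets whose arrays did not overlap between the diets compared numbered 2 for deficient against standard (2.86%, beside 1.44% of all), 1 of them higher (0.682% of all) and 1 lower (0.760% of all). There were 2 for supplemented against standard (2.86%, beside 1.81% of all), 1 higher (0.896% of all) and 1 lower (0.916% of all). For deficient against supplemented there were 7 (10.0%, beside 4.95% of all), 6 of them higher on the deficient arrays (3.08% of all) and 1 lower (1.87% of all). Without supplemented array 5, a count added after the data were seen, there were 8 for deficient against supplemented (11.4%, beside 7.54% of all) and still 2 for supplemented against standard (2.86%, now below the 3.49% of all). The median log2 difference over the 70 was 0.013 for deficient minus standard, -0.12 for supplemented minus standard and 0.15 for deficient minus supplemented, beside 0.00059, -0.016 and 0.023 over all probe sets. Differences were above 0 for 38, 27 and 40 of the 70 in the same order, beside 50.1%, 47.7% and 52.4% of all probe sets. Filtering was repeated where an array was left out or the values were as deposited, so those medians need not cover the same 70. The median for deficient minus supplemented was 0.055 without supplemented array 5 and -0.039 with the Gapdh ratio as a covariate. That for supplemented minus standard was -0.045 without supplemented array 5, -0.043 without standard array 10, -0.0023 with the Gapdh ratio and 0.010 on the values as deposited. That for deficient minus standard ran from -0.00033 without deficient array 13 to 0.060 without standard array 8. The part of array 5 and of the Gapdh ratio in these medians was not tested beyond those values.

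**Figure D1:**
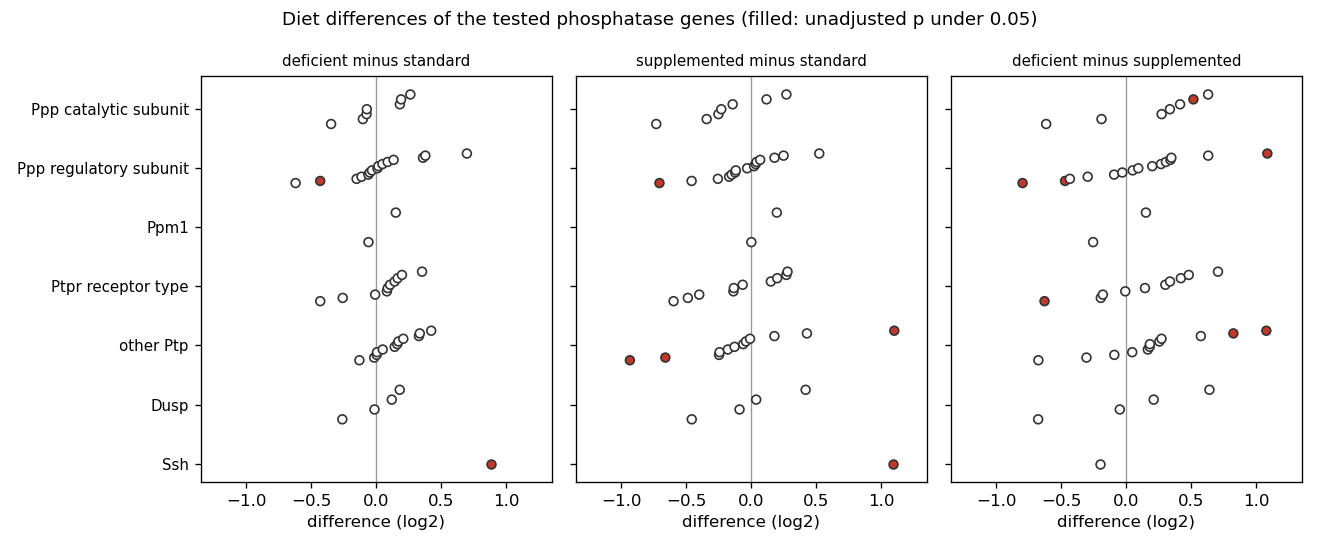
Log2 differences of the 51 tested phosphatase genes (1 point each, by class) for deficient minus standard, supplemented minus standard and deficient minus supplemented. Filled points have an unadjusted p under 0.05, which holds for 2, 5 and 7 genes, and none was called after adjustment.

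The magnesium-dependent Ppm1 group showed no diet difference past the spread between arrays. It was represented by Ppm1a, which acts on Smad proteins and stress kinases, and Ppm1b, which acts on kinases of inflammatory signalling, with 6 probe sets of which 4 were tested. Ppm1a (probe set 1) had signals of 99.5, 120.4, 105 and 170.2 units on the deficient arrays, 180.3, 151, 206, 200.2 and 56.2 units on the supplemented arrays and 117, 175, 73.9, 212 and 99.5 units on the standard arrays. All 3 diets overlapped, and array 5 was the lowest of the supplemented arrays. Its log2 differences were -0.059 ± 0.38 for deficient minus standard, 0.20 ± 0.36 for supplemented minus standard and -0.26 ± 0.38 for deficient minus supplemented (± SE here and below). Without array 5 the last 2 were 0.54 and -0.60, and without standard array 8 the supplemented minus standard difference was 0.0028. The second Ppm1a probe set differed by 0.13, 0.18 and -0.052 in the same order of comparisons, the last 2 being 0.50 and -0.37 without array 5.

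Ppm1b (probe set 1) had signals of 408, 349, 452 and 326 units on the deficient arrays, 363, 386, 382, 412 and 215 units on the supplemented arrays and 375, 309, 458, 264 and 337 units on the standard arrays. The diets overlapped, and 4 of the 5 supplemented arrays lay within a narrow range. The log2 differences were 0.15 ± 0.21 for deficient minus standard, 0.00077 ± 0.20 for supplemented minus standard and 0.15 ± 0.21 for deficient minus supplemented, and the last 2 were 0.17 and -0.019 without array 5. Probe set 2 of Ppm1b was at the 3.93-unit floor on supplemented array 5 alone, and differed by -0.92 ± 0.48 for supplemented minus standard (limma unadjusted p = 0.075) and by 0.90 ± 0.51 for deficient minus supplemented (limma unadjusted p = 0.0999), which were -0.35 and 0.33 without array 5. Probe sets 3 and 4 were too dim to be tested.

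Supplemented array 5 was the lowest supplemented array in all 6 Ppm1 probe sets. Over the 4 tested probe sets the median log2 difference was 0.050 for deficient minus standard, 0.089 for supplemented minus standard and 0.049 for deficient minus supplemented. With an array left out, normalisation and filter were run again, so the probe sets tested can differ. Without array 5 the medians were -0.026, 0.50 and -0.37, over a set that was not the same 4. In the order Ppm1a 1 and 2, Ppm1b 1 and 2, those 4 then differed by 0.54, 0.50, 0.17 and -0.35 for supplemented minus standard. For deficient minus supplemented they differed by -0.60, -0.37, -0.019 and 0.33. Among single arrays, leaving out array 5 moved the last 2 medians most, for deficient minus supplemented also in sign, but the change of set enters that move. Without supplemented array 2 they were 0.0036 and 0.13, and with the beta-actin ratio as a covariate -0.13 and 0.35. Single arrays left out moved the first value from -0.030 (without standard array 10) to 0.15 (without deficient array 12). No Ppm1 probe set was called with or without array 5.

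**Figure D2:**
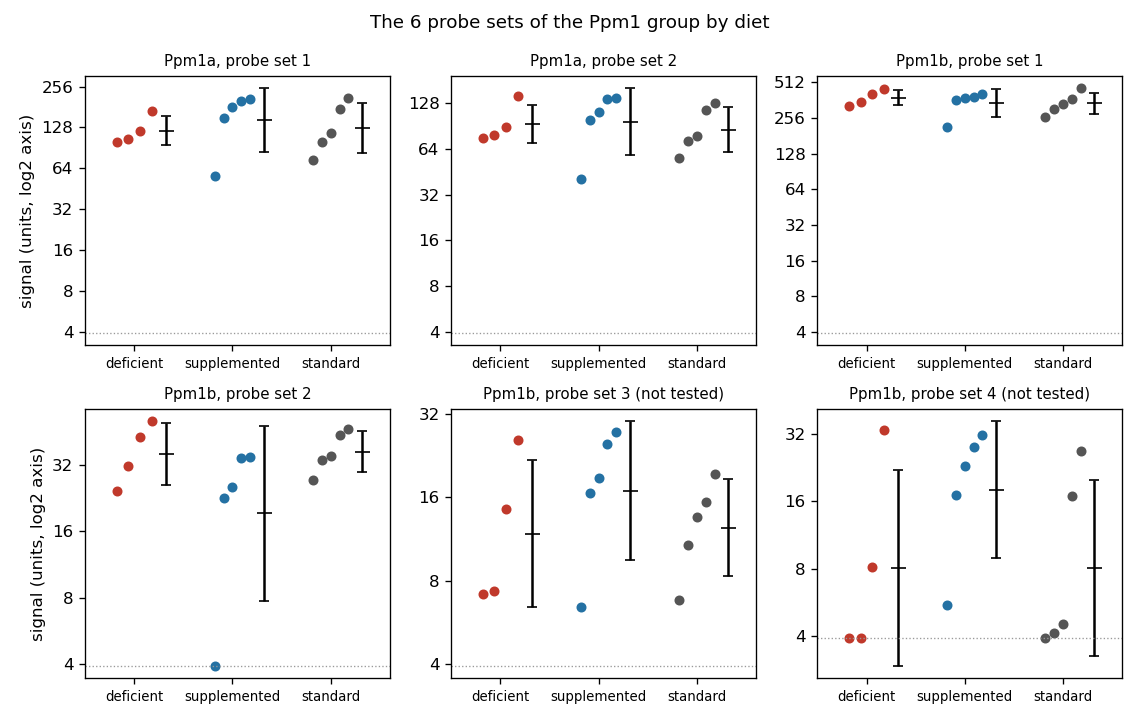
Signals (log2 axis) of the 6 Ppm1 probe sets on the deficient, supplemented and standard arrays. Points are arrays, bars are the mean ± SD of log2 signal and the dotted line is the 3.93-unit floor; in every panel the diets overlap and the lowest supplemented point is array 5.

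Of the other magnesium-dependent phosphatases, whose symbols fall outside the naming rule, the array held Ilkap, a Ppm-type enzyme that acts on integrin-linked kinase, and Pdp2, which reactivates pyruvate dehydrogenase in mitochondria. Ilkap had signals of 201, 171, 222 and 140.1 units on the deficient arrays, 114, 106, 106, 131 and 68.0 units on the supplemented arrays and 176, 144, 184, 149 and 265 units on the standard arrays. All supplemented arrays lay below all deficient and all standard arrays. The log2 difference was 0.82 ± 0.23 for deficient minus supplemented (limma adjusted p = 0.254) and -0.80 ± 0.22 for supplemented minus standard (limma adjusted p = 0.474), and 0.68 and -0.66 without array 5. Those comparisons share the supplemented arrays. Pdp2 differed by 0.66 ± 0.28 for deficient minus supplemented (limma adjusted p = 0.355) and by -0.71 ± 0.26 for supplemented minus standard (limma adjusted p = 0.492). Of 27 phosphatase genes listed outside the naming rule, 6 were on the array and 4 were tested, and 0 were called in any comparison. Ilkap and Pdp2 were the 2 with an unadjusted p under 0.05, in both comparisons with the supplemented diet, where 8.88% and 13.0% of all probe sets had one.

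Of the Ppp catalytic subunits, 7 of 8 genes were tested. In deficient against standard 3 were higher and 4 lower, in supplemented against standard 2 were higher and 5 lower, and in deficient against supplemented 5 were higher and 2 lower, with 0 called in each. Without array 5 the count for supplemented against standard was 3 higher and 4 lower. Array 5 was the lowest of all 14 for 5 of the 8 tested catalytic probe sets, with a median log2 deviation from their 14-array means of -0.74. Ppp1cc had signals of 304, 304, 271 and 248 units on the deficient arrays, 233, 294, 271, 231 and 46.1 units on the supplemented arrays and 262, 336, 254, 337 and 329.5 units on the standard arrays. Only array 5 lay far from the rest, and the supplemented minus standard difference of -0.73 ± 0.39 became -0.24 without it. Ppp1ca, at -0.23 ± 0.28 for supplemented minus standard, became 0.064 without array 5 and -0.37 without standard array 6.

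Ppp1cb had 80.4, 65.8, 124 and 206 units on the deficient arrays, 238, 220.3, 228, 259.5 and 39.8 units on the supplemented arrays and 182, 157, 82.4, 236 and 86.8 units on the standard arrays. The other 4 supplemented arrays all lay above the deficient arrays, so the deficient minus supplemented difference of -0.62 ± 0.53 (limma adjusted p = 0.622) became -1.14 without array 5 (limma adjusted p = 0.359) and -0.38 without deficient array 12. Ppp5c, a phosphatase that binds the chaperone Hsp90, had 57.6, 59.3, 73.5 and 49.8 units on the deficient arrays, 40.7, 44.8, 47.4, 35.7 and 40.3 units on the supplemented arrays and 52.7, 44.8, 29.3, 56.8 and 76.1 units on the standard arrays. Every deficient array lay above every supplemented array, while the standard arrays spanned both. The difference was 0.52 ± 0.23 for deficient minus supplemented (limma adjusted p = 0.373), and 0.21 with the Gapdh ratio as a covariate. The calcineurin gene Ppp3ca differed by -0.34 for supplemented minus standard and 0.27 for deficient minus supplemented, Ppp2cb by 0.12 and -0.19 and Ppp6c by -0.14 and 0.33. Those of Ppp2cb were 0.31 and -0.39 without array 5.

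Of the regulatory subunits, 15 of 21 genes were tested, and 8 were higher and 7 lower in deficient against standard, with a median difference of 0.0098. Ppp1r21, named as a PP1 regulatory subunit and in human cells part of a complex on early endosomes, had signals of 57.9, 58.6, 58.2 and 51.0 units on the deficient arrays, 80.0, 75.7, 81.5, 69.1 and 85.3 units on the supplemented arrays and 71.9, 91.3, 81.4, 61.5 and 76.7 units on the standard arrays. All deficient arrays lay below all arrays of both other diets. The log2 difference was -0.43 ± 0.15 for deficient minus standard (limma unadjusted p = 0.0124, adjusted p = 0.999) and -0.47 ± 0.15 for deficient minus supplemented (limma unadjusted p = 0.00713, adjusted p = 0.264), and 0.041 for supplemented minus standard, or 0.0095 without array 5. The first 2 comparisons share the deficient arrays. With the Gapdh ratio as a covariate the 2 differences were -0.43 and -0.49, and leaving out single arrays gave -0.51 to -0.36 for deficient minus standard.

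Ppp1r12a encodes the targeting subunit of myosin phosphatase, which relaxes actomyosin. Its signals were 42.9, 34.6, 46.5 and 30.7 units on the deficient arrays, 28.3, 18.9, 15.9, 18.3 and 12.2 units on the supplemented arrays and 16.2, 32.7, 29.3, 37.1 and 37.9 units on the standard arrays. The deficient arrays were all above the supplemented arrays, and standard array 6 lay among the supplemented ones. The difference was 1.08 ± 0.29 for deficient minus supplemented (2.12-fold, limma unadjusted p = 0.00201, adjusted p = 0.254) and -0.71 ± 0.27 for supplemented minus standard (limma adjusted p = 0.499). With the Gapdh ratio as a covariate these were 0.70 and -0.39. The second tested probe set gave 0.36 ± 0.21 and -0.30 ± 0.20, and on it all supplemented arrays lay below all standard arrays.

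The genes of 2 inhibitor proteins of PP1 had differences of opposite sign for deficient minus supplemented. Ppp1r2, the gene of inhibitor-2, had 13.3, 6.58, 19.5 and 24.0 units on the deficient arrays, 24.7, 23.2, 26.5, 19.4 and 31.5 units on the supplemented arrays and 19.1, 33.1, 15.7, 26.6 and 18.9 units on the standard arrays. The diets overlapped and deficient array 12 was the lowest of the 14. Its deficient minus supplemented difference of -0.80 ± 0.35 (limma adjusted p = 0.369) was -0.43 without that array. Ppp1r1a, the gene of inhibitor-1, had 23.1, 23.7, 21.4 and 18.9 units on the deficient arrays, 11.4, 14.2, 18.6, 14.97 and 12.0 units on the supplemented arrays and 16.9, 22.5, 10.8, 22.1 and 4.72 units on the standard arrays. The deficient arrays were all above the supplemented arrays, and the standard arrays spread over both. The difference was 0.63 ± 0.39 for deficient minus supplemented (limma adjusted p = 0.501), 1.20 with the Gapdh ratio as a covariate and 0.37 on the values as deposited. The Ppp1r1a mean over the 14 arrays, 15.6 units, was just above the 14.3-unit cut for testing. All deficient arrays lay above that cut and several arrays of the other diets below it, so its entry into the test depended on the diet where it was high.

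Ppp1r16b, a PP1 subunit known from endothelial cells, was too dim to be tested. Its signals were 26.8, 26.5, 40.6 and 18.1 units on the deficient arrays, 10.8, 12.9, 6.81, 4.96 and 15.8 units on the supplemented arrays and 7.96, 12.0, 7.29, 6.49 and 24.3 units on the standard arrays. Deficient arrays did not overlap the supplemented arrays, and standard array 10 lay within the deficient range. The difference was 1.51 for deficient minus supplemented and 1.40 for deficient minus standard. With no filter the first had a limma adjusted p of 0.356. Of the endothelial markers 4 were tested, with differences of -0.12 to 0.23 for deficient minus standard and -0.37 to 0.23 for deficient minus supplemented. Their summed signals ran from 129 to 157 units on the deficient arrays, from 115 to 204 units on the supplemented arrays and from 103 to 175 units on the standard arrays, and their part in the Ppp1r16b values was not tested.

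No PP2A subunit was called. Ppp2r1a, the scaffold subunit, had 482, 417, 518 and 465 units on the deficient arrays, 417, 448, 446, 557 and 679.8 units on the supplemented arrays and 545, 479.7, 448, 490.0 and 488 units on the standard arrays. The diets overlapped, with differences of -0.060 ± 0.16, 0.034 ± 0.15 and -0.094 ± 0.16 for deficient minus standard, supplemented minus standard and deficient minus supplemented, of which the last 2 were -0.077 and 0.016 without array 5. The second Ppp2r1a probe set differed by -0.59 ± 0.22 for deficient minus supplemented (limma unadjusted p = 0.0174, adjusted p = 0.323). Ppp2r5a, a B56-type subunit that selects substrates, differed by -0.032, -0.12 and 0.092. Ppp2r2a, a B55-type subunit, differed by -0.46 for supplemented minus standard and by -0.018 once array 5 was left out.

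**Figure D3:**
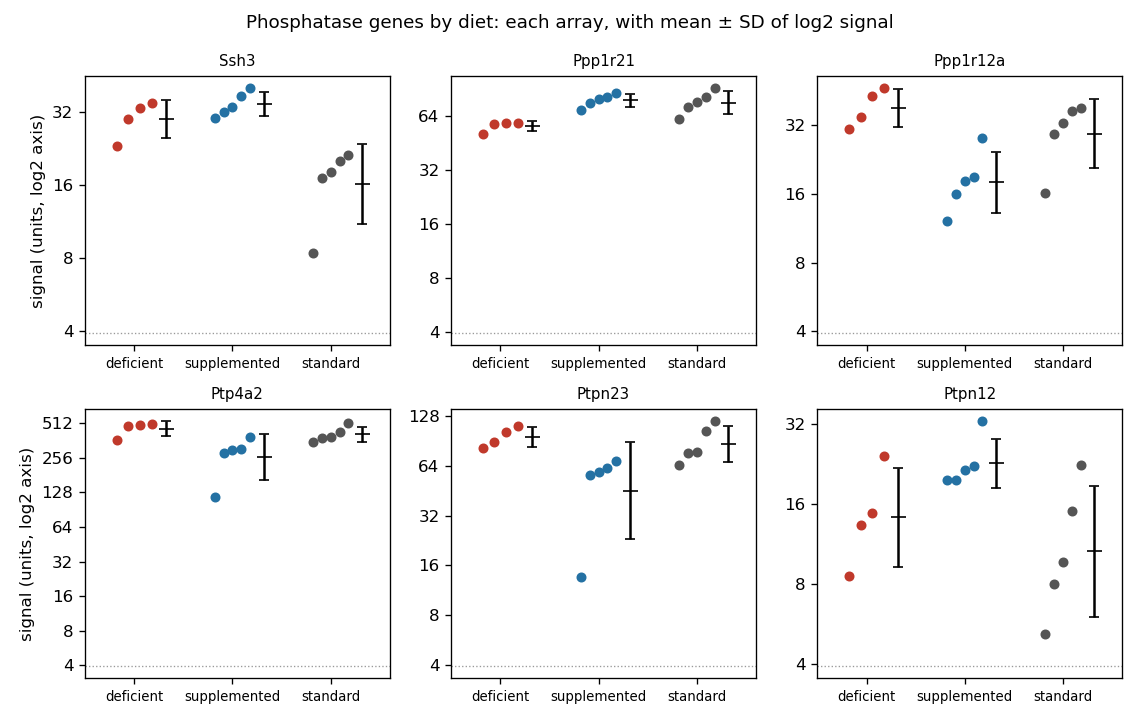
Signals (log2 axis) of Ssh3, Ppp1r21, Ppp1r12a, Ptp4a2, Ptpn23 and Ptpn12 on the deficient, supplemented and standard arrays, with the mean ± SD of log2 signal and the 3.93-unit floor as a dotted line. The deficient and supplemented Ssh3 arrays all lie above the standard arrays, the deficient Ppp1r21 arrays lie below both other diets, and the low supplemented points of Ptp4a2 and Ptpn23 are array 5.

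Of the Ptp genes other than receptors, 12 of 14 were tested, and 10 were higher and 2 lower in deficient against standard, 3 higher and 9 lower in supplemented against standard, and 9 higher and 3 lower in deficient against supplemented. Over all probe sets 50.1%, 47.7% and 52.4% were higher in the same order. Without array 5 the count for supplemented against standard was 4 higher and 8 lower. Ptp4a2 encodes PRL-2, one of the phosphatases that, in human and mouse cells, bind the CNNM magnesium transporters. Its signals were 487, 500.0, 496 and 365 units on the deficient arrays, 304, 299, 282, 388 and 117 units on the supplemented arrays and 389, 381, 433, 352 and 510.1 units on the standard arrays. Supplemented arrays were mostly the lowest, and array 4 of that diet overlapped deficient array 14. The difference was 0.82 ± 0.28 for deficient minus supplemented (1.77-fold, limma unadjusted p = 0.00934, adjusted p = 0.280), -0.66 ± 0.26 for supplemented minus standard (limma adjusted p = 0.501) and 0.16 ± 0.28 for deficient minus standard. Without array 5 the first 2 were 0.54 and -0.38, and with the Gapdh ratio as a covariate 0.19 and -0.14.

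With all arrays, the related Ptp4a1, the gene of PRL-1, did not follow Ptp4a2 in sign. Its differences were -0.13 ± 0.23 for deficient minus standard, 0.18 ± 0.21 for supplemented minus standard and -0.31 ± 0.23 for deficient minus supplemented (limma adjusted p = 0.557). Supplemented array 2, at 1132 units for Ptp4a1 against 549.8 to 637 units on the other supplemented arrays, enters the last 2 of these. Values without that array are not given here. The difference between Ptp4a1 and Ptp4a2 was not tested.

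Ptpn23, which sorts receptors on endosomes, had signals of 89.7, 103, 112 and 82.1 units on the deficient arrays, 56.4, 62.1, 69.1, 59.0 and 13.6 units on the supplemented arrays and 77.8, 77.0, 105, 65.4 and 119.8 units on the standard arrays. Every deficient array lay above every supplemented array, also apart from array 5. The difference was 1.08 ± 0.39 for deficient minus supplemented (limma unadjusted p = 0.0142, adjusted p = 0.307) and -0.93 ± 0.37 for supplemented minus standard (limma adjusted p = 0.501). Without array 5 these were 0.65 and -0.51, and with the Gapdh ratio as a covariate 0.20 and -0.22. The second probe set of Ptpn23 differed by -0.27 ± 0.40 for deficient minus supplemented and by 0.053 without array 5.

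Ptpn12 (PTP-PEST), which acts on focal adhesion proteins, had 13.4, 8.54, 14.8 and 24.2 units on the deficient arrays, 32.7, 21.5, 19.6, 22.2 and 19.7 units on the supplemented arrays and 9.63, 14.97, 7.99, 22.5 and 5.17 units on the standard arrays. The supplemented arrays were higher than 4 of the 5 standard arrays, and standard array 9 lay among them. The supplemented minus standard difference was 1.10 ± 0.38 (2.14-fold, limma unadjusted p = 0.0117, adjusted p = 0.492), 0.84 without standard array 10 and 0.59 with the Gapdh ratio as a covariate. The Ptpn12 mean over the 14 arrays, 15.1 units, was just above the 14.3-unit cut for testing. All supplemented arrays lay above that cut and most standard arrays below it, so its entry into the test depended on the diet where it was high. Ptpmt1, a mitochondrial phosphatase needed for cardiolipin, had 129, 125, 122 and 118 units on the deficient arrays, 114, 104, 107, 114 and 113 units on the supplemented arrays and 99.7, 139, 153, 114 and 126 units on the standard arrays. Deficient and supplemented arrays did not overlap, although the difference was only 0.16 ± 0.15 (limma adjusted p = 0.654). Ptpn21, a cytoskeleton-associated phosphatase, differed by 0.0066 for deficient minus standard and 0.25 for deficient minus supplemented.

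Ptpn1 encodes PTP1B, which dephosphorylates the insulin receptor in liver, and its 4 tested probe sets disagreed. Probe set 2 was picked out after its values were seen. It had 142, 201, 211 and 122 units on the deficient arrays, 82.7, 75.3, 53.6, 103 and 59.8 units on the supplemented arrays and 70.3, 98.9, 131, 105 and 236 units on the standard arrays, so the deficient arrays were all above the supplemented ones. Its difference of 1.18 ± 0.31 for deficient minus supplemented (limma unadjusted p = 0.00175, adjusted p = 0.245) stood beside 0.18, -0.38 and 0.0052 for probe sets 1, 3 and 4, the last being 0.18 without array 5. That of probe set 2 was 1.12 without it. Of 18 insulin and growth factor signalling genes listed, 13 were tested and 0 were called, with Gsk3b, a kinase that inhibits glycogen synthase, at 0.73 ± 0.25 for deficient minus supplemented (limma adjusted p = 0.302).

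Of the receptor type Ptpr genes, 10 of 18 were tested. Median differences over them were 0.098 for deficient minus standard, -0.10 for supplemented minus standard and 0.22 for deficient minus supplemented, and the last 2 were 0.041 and 0.089 without array 5. Ptpra, which activates Src family kinases, had 29.9, 18.0, 19.4 and 26.9 units on the deficient arrays, 52.7, 28.8, 34.4, 27.3 and 40.05 units on the supplemented arrays and 41.3, 30.7, 25.7, 38.2 and 23.0 units on the standard arrays. Deficient array 11 overlapped the supplemented arrays and the standard arrays overlapped both. The difference was -0.63 ± 0.26 for deficient minus supplemented (limma unadjusted p = 0.0274, adjusted p = 0.335) and -0.24 with the Gapdh ratio as a covariate.

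Ptprf (LAR), a receptor phosphatase that acts on the insulin receptor, differed by 0.20 ± 0.25 for deficient minus standard, -0.14 ± 0.23 for supplemented minus standard and 0.34 ± 0.25 for deficient minus supplemented, and the last 2 were 0.057 and 0.14 without array 5. Ptprj, which acts on growth factor receptors, differed by 0.35 ± 0.33, -0.066 ± 0.31 and 0.42 ± 0.33, the second being 0.026 without array 5. Ptprs, a receptor of the LAR family, differed by -0.60 ± 0.46 for supplemented minus standard, and by -0.028 once array 5, at 41.9 units against 261 to 380.4 units on the other supplemented arrays, was left out. Ptprc encodes CD45, which marks leukocytes, and had 22.5, 29.8, 27.5 and 29.9 units on the deficient arrays, 25.5, 39.4, 39.9, 30.0 and 23.4 units on the supplemented arrays and 49.1, 34.0, 32.5, 30.6 and 6.65 units on the standard arrays. The diets overlapped, with differences of 0.089, 0.27 and -0.18 for deficient minus standard, supplemented minus standard and deficient minus supplemented, the last being -0.28 without array 5. In such bulk samples fewer cells of a type and less RNA per cell cannot be told apart. Of 13 leukocyte markers 6 were tested, with median differences of 0.14, 0.072 and 0.089 and 0 called, the last 2 being 0.11 and 0.22 without array 5. Their summed signals ran from 466 to 906 units on the deficient arrays, from 488 to 764 units on the supplemented arrays and from 332 to 658 units on the standard arrays.

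Of the dual specificity phosphatases, 4 of 5 genes were tested and none had an unadjusted p under 0.05. Dusp1, an immediate early gene whose product inactivates p38 and JNK kinases, had 383, 358, 412 and 686 units on the deficient arrays, 744, 688, 479.7, 747 and 982 units on the supplemented arrays and 256, 1162, 646, 386 and 570.2 units on the standard arrays. The standard arrays spanned the range of both other diets, and deficient array 14 lay among the supplemented arrays. The differences were -0.26 ± 0.36 for deficient minus standard, 0.42 ± 0.33 for supplemented minus standard and -0.68 ± 0.36 for deficient minus supplemented (limma unadjusted p = 0.0758, adjusted p = 0.424). Dusp6, which acts on ERK kinases, differed by 0.64 ± 0.38 for deficient minus supplemented on its first probe set, or 0.28 without deficient array 13, and by -0.36 ± 0.32 on its second. Dusp5, also an ERK phosphatase, differed by -0.013, 0.038 and -0.050 in the 3 comparisons, the last 2 being -0.094 and 0.082 without array 5. Of 20 MAP kinase pathway genes listed, 9 were tested and 0 called, with Map2k2 at 0.48 ± 0.16 for deficient minus supplemented (limma adjusted p = 0.278), where its arrays did not overlap.

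Dusp4, a nuclear MAP kinase phosphatase, was dim on every array and stayed out of the test. It had 5.30, 5.55, 4.86 and 5.67 units on the deficient arrays, 3.93, 4.63, 3.93, 4.02 and 3.93 units on the supplemented arrays and the floor of 3.93 units on all 5 standard arrays. The deficient arrays were thus above all others, by 0.44 on the log2 scale over the standard arrays, a size set by the floor, and by 0.39 over the supplemented arrays. With no filter on dim probe sets, limma called it in deficient against standard (adjusted p = 0.0209) and in deficient against supplemented (adjusted p = 0.0391). The standard arrays, all at the floor, had no spread in that fit. With the floor at the 10th percentile the differences were 0.86 and 0.68, and on the values as deposited 0.37 and 0.17.

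Ssh3 had the smallest unadjusted p of the 70 tested phosphatase probe sets for deficient against standard and for supplemented against standard. It encodes a slingshot phosphatase, which reactivates cofilin. Its signals were 33.2, 23.3, 34.7 and 29.9 units on the deficient arrays, 40.1, 30.4, 33.6, 32.0 and 37.2 units on the supplemented arrays and 18.2, 20.2, 17.1, 21.2 and 8.39 units on the standard arrays. All arrays of both magnesium diets lay above all standard arrays, of which array 10 was the lowest. The difference was 0.89 ± 0.26 for deficient minus standard (1.85-fold, limma unadjusted p = 0.00427, adjusted p = 0.999), 1.09 ± 0.25 for supplemented minus standard (2.13-fold, limma unadjusted p = 0.00053, adjusted p = 0.385) and -0.20 ± 0.26 for deficient minus supplemented. The first 2 comparisons share the standard arrays. Without standard array 10 they were 0.65 and 0.85, and with the Gapdh ratio as a covariate 0.95 and 0.78. Of 16 cofilin pathway genes listed, 7 were tested and 0 called, with the actin gene Actg1 at 0.79 ± 0.30 for supplemented minus standard (limma adjusted p = 0.492) and -0.71 ± 0.32 for deficient minus supplemented (limma adjusted p = 0.373).

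**Figure D4:**
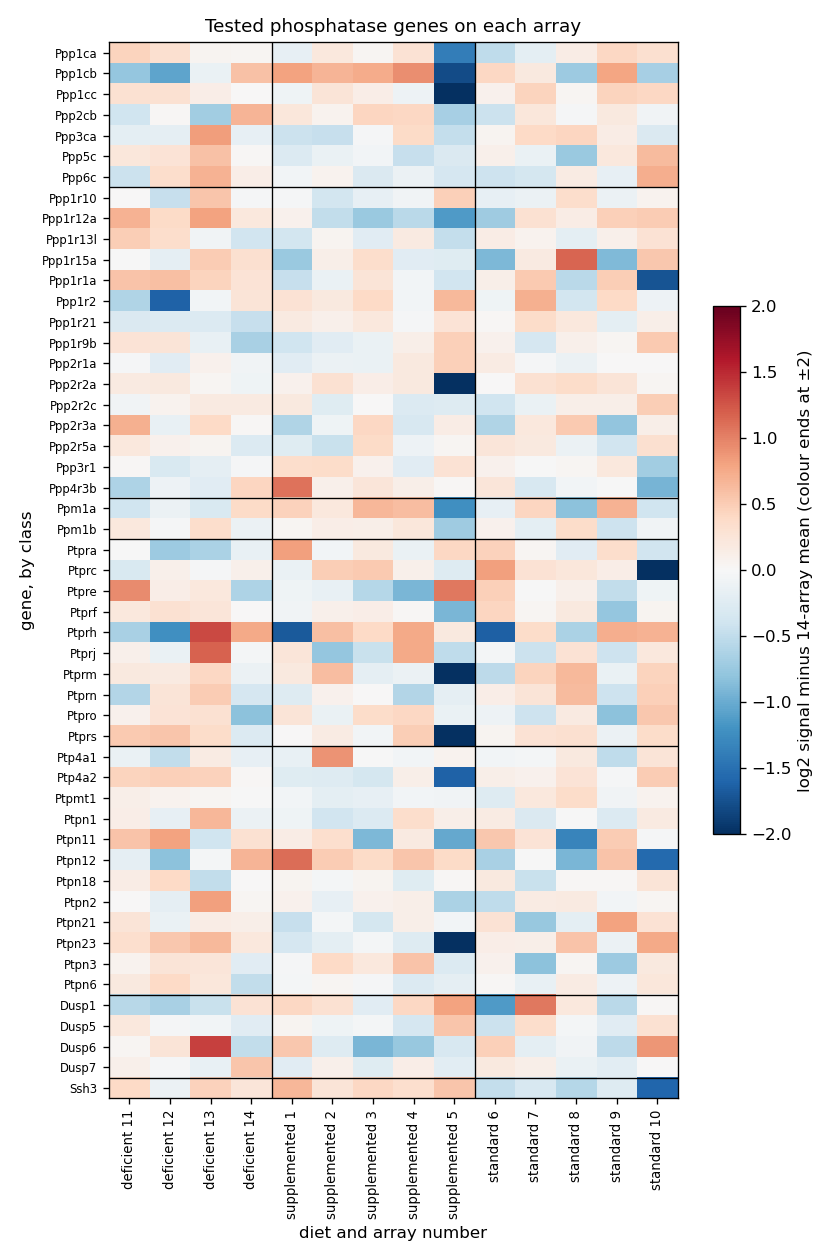
Log2 signal minus the 14-array mean of the 51 tested phosphatase genes, in rows by class, on the deficient, supplemented and standard arrays in columns, with colour ending at ± 2. The deepest lows are those of Ptprs, Ppp1cc and Ptpn23 on supplemented array 5.

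The remaining pathway lists gave 0 called genes in each comparison. For 7 glycogen enzymes of 16 listed the median differences were -0.0050 for deficient minus standard, -0.00060 for supplemented minus standard and -0.016 for deficient minus supplemented. For 5 partner proteins of PP1 and PP2A they were -0.036, -0.36 and 0.33, for 3 calcineurin partners 0.065, -0.084 and 0.13 and for 14 immediate early genes -0.057, -0.092 and -0.056. Without array 5 the supplemented minus standard and deficient minus supplemented medians were 0.15 and 0.059 for the glycogen enzymes, -0.077 and 0.19 for the PP1 and PP2A partners, -0.041 and 0.11 for the calcineurin partners and -0.038 and -0.023 for the immediate early genes. Among the immediate early genes, Fosl2 and Myc had an unadjusted p under 0.05 for deficient against standard, at -0.58 and 0.63. Of 9 Kupffer cell markers listed, 5 were on the array and 4 were tested. These were higher on the supplemented than on the standard arrays in 4 of 4 genes, by a median of 0.32. They were lower on the deficient than on the supplemented arrays in 4 of 4, by a median of -0.30, with 0 called. In each of those comparisons 1 of the 4 had a limma unadjusted p under 0.05, where 8.88% and 13.0% of all probe sets had one. Their summed signals ran from 601 to 869 units on the deficient arrays, from 747 to 1105 units on the supplemented arrays and from 626 to 837 units on the standard arrays. Their part in the phosphatase values was not tested. Median differences for deficient minus standard, supplemented minus standard and deficient minus supplemented were -0.021, -0.013 and -0.019 over 8 hepatocyte markers, -0.080, -0.012 and 0.095 over 5 stellate cell markers and -0.28, -0.033 and -0.25 over 2 neural markers. Without array 5 the last 2 of each were -0.037 and 0.0040, -0.084 and 0.081, and -0.12 and -0.16. Across the 14 arrays the levels of Dusp1, Dusp5, Dusp6 and Ppp1r15a were set against the mean deviation of those 14 immediate early genes, and Ptprc against that of 6 leukocyte markers. Over these 5 relations Pearson's r ran from -0.25 to 0.27 and Spearman's rho from -0.26 to 0.26, with a smallest permutation p of 0.346 (adjusted 0.530). The lowest r and rho were both those of Ptprc against the leukocyte markers. Without the 2 arrays farthest from the median r ran from -0.23 to 0.10. Within diets r ran from -0.29 (Ptprc) to 0.33 (Dusp1), with a smallest permutation p of 0.252 (adjusted 0.605).

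Probe sets of 1 gene often differed in direction. Of 14 phosphatase genes with several tested probe sets, all of a gene's probe sets had the same sign in 4 for deficient minus standard, in 12 for supplemented minus standard and in 7 for deficient minus supplemented. The SD within diets, pooled over the 3 groups, had a median of 0.39 on the log2 scale over the 51 genes and of 0.39 over all 5133 probe sets. It was lowest for Ptpmt1 (0.15) and highest for Ptprh (1.06), a receptor phosphatase, with Ppp1cb at 0.89 and Ptprs at 0.81.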

How the data were processed

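Rat liver RNA was hybridised to Affymetrix arrays in 3 diet groups. Per the labels' protocols, RNA of the left lateral lobe taken at necropsy was extracted with Trizol and then RNeasy. The deposited values are linear signal intensities, 1 per probe set and array, and their trimmed mean, leaving out 2% at each end, was 150.3 on every array. No source used here names the signal software, and detection calls were not used here. No deposited column was left unused. Array medians differed by up to 1.91 times, so log2 values were quantile normalised over 8740 probe sets, leaving out 59 controls, and floored at the pooled 20th percentile. A probe set was kept when its mean was above the 40th percentile of all single-array values, pooled before flooring. The 5133 remaining probe sets were fitted with limma 3.58.1 (R 4.3.3), all 3 diets in 1 model with a trended spread, and a call needed an adjusted p (Benjamini-Hochberg) under 0.05. The fitting steps were tested on simulated data. The number of arrays limits the precision.

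A gene is represented by its brightest tested probe set, and probe sets are numbered from the brightest. Genes were named when they were among the 10 smallest unadjusted p under 0.05 or the next 5 with non-overlapping arrays in a comparison, belonged to the Ppm1 or Ssh group or were among the 3 brightest of a class; 29 genes met this. The members, the pathway and marker lists and the alternatives were chosen with earlier results of these data known. Permutation tests used scipy 1.17.1 (Python 3.11.15) with 100000 resamples, two-sided. Alternatives covered scaling, floor, filter, array weights, spread model, control-probe ratios as covariates and leaving out arrays. Where arrays were left out, normalisation, floor and filter were run again, so the probe sets tested can differ. Counts of non-overlapping arrays without supplemented array 5 kept the main values.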

Additional observations from a re-analysis of the deposited data

Results flagged for a closer look

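Of 86 groups of arrays examined, 16 had 1 array far from the others of its diet by Dixon's test, where chance gives about 1 in 20 for independent groups. These groups are not independent, because the genes share the same arrays and were partly chosen by their diet differences. The share over all probe sets was not computed. Supplemented array 5 was that array, and the lowest of its diet, for 10 genes. Its signal was 56.2 units for Ppm1a, 215 for Ppm1b, 151 for Ppp1ca, 39.8 for Ppp1cb, 46.1 for Ppp1cc, 51.9 for Ppp2r2a, 117 for Ptp4a2, 13.6 for Ptpn23, 359 for Ptprf and 41.9 for Ptprs. Deficient array 14 was the lowest of its diet for Ppp1r21, at 51.0 units, and for Ptp4a2, at 365 units. Supplemented array 2 was the highest of its diet for Ptp4a1, at 1132 units against 549.8 to 637 units on the others, and for Dusp4, at 4.63 units, close to the floor. Supplemented array 1 was the highest for Ptpn12, at 32.7 units against 19.6 to 22.2 units. Standard array 10 was the lowest for Ssh3, at 8.39 units against 17.1 to 21.2 units.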

How the results depend on the processing

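For the phosphatases, 14 alternatives left out single arrays. The other 12 changed the processing or left out supplemented 5, standard 10 and deficient 13 together. No phosphatase probe set was called under any of them except with no filter on dim probe sets, where 1, Dusp4, was called for deficient against standard, for deficient against supplemented and by the F-test; there the standard arrays are all at the floor, so that their spread is 0. Of 753 alternative values of 30 gene and comparison pairs, 728 kept their direction without a call, 20 reversed, 2 were the calls of Dusp4 with no filter and 3 were untested Dusp4 values that moved by over 1 SD. Reversals for supplemented minus standard were Ppm1b at -0.15 with arrays centred on their median and -0.46 as the mean of its probe sets, Ppp1ca at 0.14 with the Gapdh ratio and 0.13 without supplemented 5, standard 10 and deficient 13, Ptprs at 0.21 and 0.017 under those 2 settings, and, with the beta-actin ratio, Ppm1a at -0.12 and Ppp1cb at -0.16. For deficient minus supplemented they were Dusp6 at -0.14 and Ppp1cc at -0.024 with the Gapdh ratio and Ppp1cb at 0.067 with the beta-actin ratio. Leaving out single arrays gave -0.093 to 0.17 for Ppm1b and -0.37 to 0.064 for Ppp1ca, supplemented minus standard. In differences added after the data were seen, leaving out supplemented array 5 also reversed Ppm1b (-0.019), Ppp2r1a (0.016), Ptpn23 probe set 2 (0.053) and Dusp5 (0.082) for deficient minus supplemented, and Ppp2r1a (-0.077), Ptprf (0.057), Ptprj (0.026) and Dusp5 (-0.094) for supplemented minus standard. The causes were not tested. With single arrays left out, phosphatase probe sets at an unadjusted p under 0.05 numbered 2 to 5 for deficient against standard (1.83% to 4.32% of all probe sets), 4 to 9 for supplemented against standard (5.57% to 10.6%) and 6 to 16 for deficient against supplemented (7.69% to 16.8%). Under the other alternatives they numbered 2 to 6 (2.57% to 4.6%), 4 to 9 (2.57% to 10.4%) and 5 to 13 (2.20% to 19.4%), with the lowest shares of the last 2 comparisons under the Gapdh ratio. No paired analysis was possible because the array numbers run on from diet to diet and no number is shared.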
